A study of Mus musculus with 6 samples.

Results

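The genes described here are 10 genes of receptor signalling through immunoreceptor tyrosine-based activation motifs (ITAMs), taken by name from a table of 15601 genes: the adaptors Fcer1g, Cd247, Tyrobp and Hcst, the CD3 chains Cd3d, Cd3e and Cd3g, the kinases Syk and Zap70, and the Fc receptor gene Fcgr3. All 10 were in the table and all 10 passed the filter on low counts. They were measured by RNA sequencing of liver lymphocytes from mice, in 3 libraries labelled tamoxifen and 3 labelled oil, the vehicle. The study's title concerns RORα and type 1 innate lymphoid cells (ILC1s), a liver-resident population related to natural killer (NK) cells. Tamoxifen binds oestrogen receptors and serves widely as the inducer of Cre fusion proteins; the labels used here state no genotype, strain, age, dose, cell number per library or pooling of animals. Nothing in the labels says that the libraries came from separate animals, so p-values rest on a spread between libraries that may be technical.

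Many activating receptors of NK cells and ILC1s have short cytoplasmic tails and signal through separate adaptor chains. FcRγ, CD3ζ and DAP12, the products of Fcer1g, Cd247 and Tyrobp, carry ITAMs, whose paired tyrosines are phosphorylated by Src-family kinases and then bound by the tandem SH2 domains of Syk and ZAP-70. DAP10, the product of Hcst, carries a different motif that recruits phosphoinositide 3-kinase. In mice, NKp46 pairs with FcRγ and CD3ζ, NK1.1 and CD16 with FcRγ, NKG2D with DAP10 and DAP12, and the activating Ly49 receptors with DAP12.

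The coding sequences of the motifs are shown because they define the adaptors. They were read from the GENCODE M21 transcripts (GRCm38) by searching the principal coding sequence for a tyrosine codon, any 2 codons and a leucine or isoleucine codon, then the same pattern again after 6 to 8 codons. The search found 8 such stretches in 6 of the 10 genes, 3 of them in Cd247 and 1 each in Fcer1g, Tyrobp, Cd3d, Cd3e and Cd3g. Syk, Zap70 and Fcgr3 held none, and Hcst held 1 codon run for tyrosine, any residue, asparagine and methionine. Capitals mark the tyrosine codons of each motif. In the Hcst line the motif runs from the capitals to the next methionine codon, and the codons before and after it are flanking sequence.
Fcer1g (chr1:171229889-171230072, minus strand): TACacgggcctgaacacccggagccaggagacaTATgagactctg
Cd247, first (chr1:165856451-165857454, plus strand): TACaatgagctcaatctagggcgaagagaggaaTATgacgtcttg
Cd247, second (chr1:165858473-165859260, plus strand): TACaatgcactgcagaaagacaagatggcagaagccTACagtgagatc
Cd247, last (chr1:165859819-165861042, plus strand): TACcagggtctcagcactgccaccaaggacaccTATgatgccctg
Tyrobp (chr7:30415670-30417382, plus strand): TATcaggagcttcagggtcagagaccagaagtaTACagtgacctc
Cd3e (chr9:44999549-45000440, minus strand): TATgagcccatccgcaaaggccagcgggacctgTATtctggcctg
Hcst (chr7:30417803-30418091, minus strand): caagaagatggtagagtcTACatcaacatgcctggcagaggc
Each of the 8 ITAM stretches was interrupted by an exon junction, which is why the genomic intervals are longer than the sequences. The first and last motifs of Cd247, like those of Fcer1g, Tyrobp and Cd3e, are 45 bases long, and the middle motif of Cd247 is 48 bases long.

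Library totals were 5289803 to 6325899 counts, and the 10 genes together took 0.290% to 0.377% of them. Each gene had between 120 and 8058 counts in every library. The ILC1 and NK lineage showed in all 6 libraries: Ncr1, which encodes NKp46, averaged 1238 ± 90.9 CPM (counts scaled to library size) in tamoxifen and 1225 ± 126.5 CPM in oil (SD, n = 3 each). Tbx21, the gene of T-bet, was at 137 to 272 CPM in tamoxifen and 133 to 419 CPM in oil, and Eomes, which marks conventional NK cells, at 87.6 to 144 and 86.6 to 157 CPM. Of the 13 ILC1 and NK markers, 5 had groups that did not overlap, against 8.87% of all tested genes, and they are named here after their values were seen. Cxcr6, a chemokine receptor gene of liver-resident lymphocytes, was at 111 to 157 CPM in tamoxifen and 201 to 477 CPM in oil (log2 fold change -1.47, SE 0.29). Itga1, which encodes the ILC1 marker CD49a, was at 10.5 to 19.5 CPM in tamoxifen and 31.8 to 35.4 CPM in oil (-1.19, SE 0.29), and Itga2, which encodes the NK marker CD49b, at 6.48 to 12.8 and 14.0 to 27.0 CPM (-0.90, SE 0.38). Il7r, the interleukin-7 receptor gene, was at 24.4 to 52.6 CPM in tamoxifen and 15.5 to 22.6 CPM in oil (1.01, SE 0.33), and the other was Klrb1c, described with the receptors. None of the 13 passed edgeR's quasi-likelihood test after adjustment over all tested genes (lowest adjusted p = 0.385, Cxcr6). In that test 4 of the 13 had an unadjusted p below 0.05, against 3.52% of all tested genes. The part of these differences in the values of the 10 genes was not tested. The libraries differed in how abundance followed gene length: the slope of log2 CPM per doubling of length, over 10811 tested genes, was -0.06, 0.05 and -0.06 in tamoxifen replicates 1, 2 and 3 and 0.04, 0.11 and -0.08 in oil replicates 1, 2 and 3.

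Tyrobp and Fcer1g were the most abundant of the 10 genes per length. On the deposited FPKM scale (fragments per kilobase of gene, scaled to library size), Tyrobp averaged 1954 ± 334 in tamoxifen and 1754 ± 112 in oil (SD, n = 3 each) and ranked 17 among all 15601 genes by its mean over the 6 libraries. Fcer1g averaged 735 ± 97.2 FPKM in tamoxifen and 710.4 ± 159 in oil, at rank 51. These were followed by Hcst, Cd3g, Zap70 and Cd3d at 6-library means of 110.2, 87.1, 78.4 and 55.9 FPKM, and by Fcgr3, Cd247 and Cd3e at 43.1, 23.6 and 22.7 FPKM. Syk was last, at 2.62 FPKM and rank 7394. Between neighbours in this order the ranges over the 6 libraries were separate for Tyrobp and Fcer1g, Fcer1g and Hcst, Fcgr3 and Cd247, and Cd3e and Syk, and overlapped for the others.

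The order depended on the gene length used. The lengths that the deposited FPKM imply were 5.06 times the GENCODE principal transcript for Cd247 (8265 against 1632 bases), 2.84 times for Fcgr3, 2.55 times for Syk, 2.38 times for Fcer1g and 1.87 times for Zap70, and 0.818 to 1.30 times for the other 5 genes. Per kilobase of the principal transcript, an alternative added after the data were seen, Fcer1g stood at 1729 CPM per kilobase beside 1859 for Tyrobp, and their ranges overlapped. On that scale Cd247 moved to position 5, from position 8 by FPKM, and Hcst to position 7, from position 3. Syk remained last on both scales, at 6.62 CPM per kilobase.

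Among the adaptors, Tyrobp (ENSMUSG00000030579; mm10 chromosome 7, 30413788 to 30417577, plus strand) had 1087, 906 and 1335 CPM in tamoxifen replicates 1, 2 and 3, against 907, 957 and 1099 CPM in oil. The highest library was a tamoxifen library and so was the lowest, and the groups overlapped. The log2 fold change was 0.17 (SE 0.18), and the 95% interval covered fold changes of 0.858 to 1.47. Fcer1g (ENSMUSG00000058715; chromosome 1, 171229572 to 171234365, minus strand) had 1209.8, 988 and 1361 CPM in tamoxifen, against 1062, 887 and 1485 CPM in oil. Both ends of its range were oil libraries, and the fold change interval was 0.755 to 1.42 around a log2 fold change of 0.05 (SE 0.21).

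Hcst (ENSMUSG00000064109) lies on chromosome 7 beside Tyrobp, 30417717 to 30419854 on the minus strand, with 139 bases between the facing 3′ ends of the genes. It had 55.6, 42.2 and 62.7 CPM in tamoxifen, against 37.1, 33.9 and 59.3 CPM in oil. Oil replicate 3 lay above 2 of the 3 tamoxifen libraries, and the log2 fold change was 0.30 (SE 0.27), with an interval of 0.811 to 1.87 for the fold change. Cd247 (ENSMUSG00000005763; chromosome 1, 165788681 to 165877277, plus strand) had 137, 237 and 239 CPM in tamoxifen, against 212, 183 and 158 CPM in oil. Tamoxifen replicate 1 was the lowest of the 6 libraries and the other two tamoxifen libraries were the highest. Its log2 fold change was 0.15 (SE 0.23), with an interval of 0.780 to 1.57 for the fold change. Pou2f1 runs on the opposite strand, and its exons cover 56.4% of the exonic bases of Cd247, and overlapping genes cover 12.1% of its principal transcript; whether counting used strand was not stated in these sources. Pou2f1 itself was counted at 7.81 to 14.9 CPM in tamoxifen and 3.87 to 16.8 CPM in oil.

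The CD3 chains were present in every library and in 1 order, with Cd3g above Cd3d and Cd3d above Cd3e by FPKM in 6 of 6 libraries. The 3 genes lie side by side on chromosome 9, Cd3g at 44969572 to 44980431 (minus strand), Cd3d at 44981793 to 44987052 (plus strand) and Cd3e at 44998743 to 45009590 (minus strand); Cd3d and Cd3g point away from each other with 1361 bases between their starts. Cd3d (ENSMUSG00000032094) had 85.0, 51.9 and 114 CPM in tamoxifen, against 47.8, 65.7 and 81.4 CPM in oil. It varied 2.21-fold among the tamoxifen libraries and 1.70-fold among the oil libraries, and its log2 fold change was 0.37 (SE 0.30). That was the highest of the 10 estimates, and Cd3d had the highest in 9 of the 15 alternative fits. The estimate was 0.077 without tamoxifen replicate 3, 0.19 without oil replicate 1, 0.62 without tamoxifen replicate 2 and 0.55 without oil replicate 3. Cd3e (ENSMUSG00000032093) had 33.4, 22.0 and 45.3 CPM in tamoxifen, against 24.5, 34.1 and 37.0 CPM in oil, and Cd3g (ENSMUSG00000002033) had 123, 105 and 151 CPM, against 86.9, 110.1 and 124 CPM. For all 3 chains tamoxifen replicate 3 was the highest of the 6 libraries. The fold change intervals were 0.817 to 2.03 for Cd3d, 0.660 to 1.68 for Cd3e and 0.861 to 1.62 for Cd3g.

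Summed, the CD3 chains stood at 241, 179 and 311 CPM in tamoxifen, against 159, 210 and 242 CPM in oil, means of 244 ± 65.8 and 204 ± 41.9 CPM (SD, n = 3 each). The sums overlapped (two-sided exact permutation test, p = 0.5; 3 against 3 libraries cannot give less than 0.1). CD3 chains are defining genes of T cells, and T cell receptor transcripts are also known from NK cells and innate lymphoid cells, so the 16 other T cell markers were set beside them. Of these, 14 were in the table, and they summed to 1021 to 1474 CPM in tamoxifen and 1078 to 1675 CPM in oil. The sum came mostly from receptor constant regions, with Trbc2 the highest at a mean of 363 CPM, and Trac was at 48.6 to 106 CPM in tamoxifen and 42.7 to 103 CPM in oil. Among constant regions of the gamma and delta chains, Tcrg-C4, Trdc and Tcrg-C1 had means of 172, 118 and 85.2 CPM. These lay above the mean of Trac (73.9 CPM), and Tcrg-C2 lay below it (32.2 CPM). Cd4 was at 0 to 0.827 CPM in tamoxifen and 0 to 3.50 CPM in oil, Cd8b1 at 0 to 1.52 and at 0 CPM (where 3 counts, 0.474 to 0.567 CPM, could be missed by counting error alone), and Trat1, an adaptor of the T cell receptor complex, at 0.762 to 2.31 and 0 to 1.66 CPM. Cd5 and Cd6, pan-T surface receptors, did not exceed 7.05 CPM in tamoxifen or 10.6 CPM in oil. Cd28, a costimulatory receptor gene of T cells, was well above these, at 78.9 to 107 CPM in tamoxifen and 96.5 to 121 CPM in oil. None of the 14, of which 11 were tested, had groups that separated, against 8.87% of all tested genes. So few genes cannot tell these shares apart. In a bulk library fewer cells of a type and less RNA per cell cannot be told apart, and the part of T cells in the CD3 values was not tested.

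Of the kinases, Zap70 varied least within groups among the 10 genes and Syk varied most over the 6 libraries. Zap70 (ENSMUSG00000026117; chromosome 1, 36761798 to 36782818, plus strand) had 319, 365 and 297 CPM in tamoxifen, against 344, 357 and 283 CPM in oil. The log2 fold change was -0.0049 (SE 0.17), with a fold change interval of 0.773 to 1.28, and its spread within groups (SD 0.17 on the log2 CPM scale) was the smallest of the 10; 11.5% of tested genes had a smaller one. Syk (ENSMUSG00000021457; chromosome 13, 52583173 to 52648792, plus strand) had 23.8, 39.0 and 22.9 CPM in tamoxifen, against 32.9, 62.6 and 31.7 CPM in oil, from 485 and 727 counts in all. Oil replicate 2 stood well above the other 5 libraries, and tamoxifen replicate 2 lay above oil replicates 1 and 3. The log2 fold change was -0.57 (SE 0.33), the largest in size of the 10, and the interval covered fold changes of 0.405 to 1.13. Without oil replicate 2 the log2 fold change of Syk was -0.17, smaller in size than that of Cd3d (0.38).

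**Figure D1:**
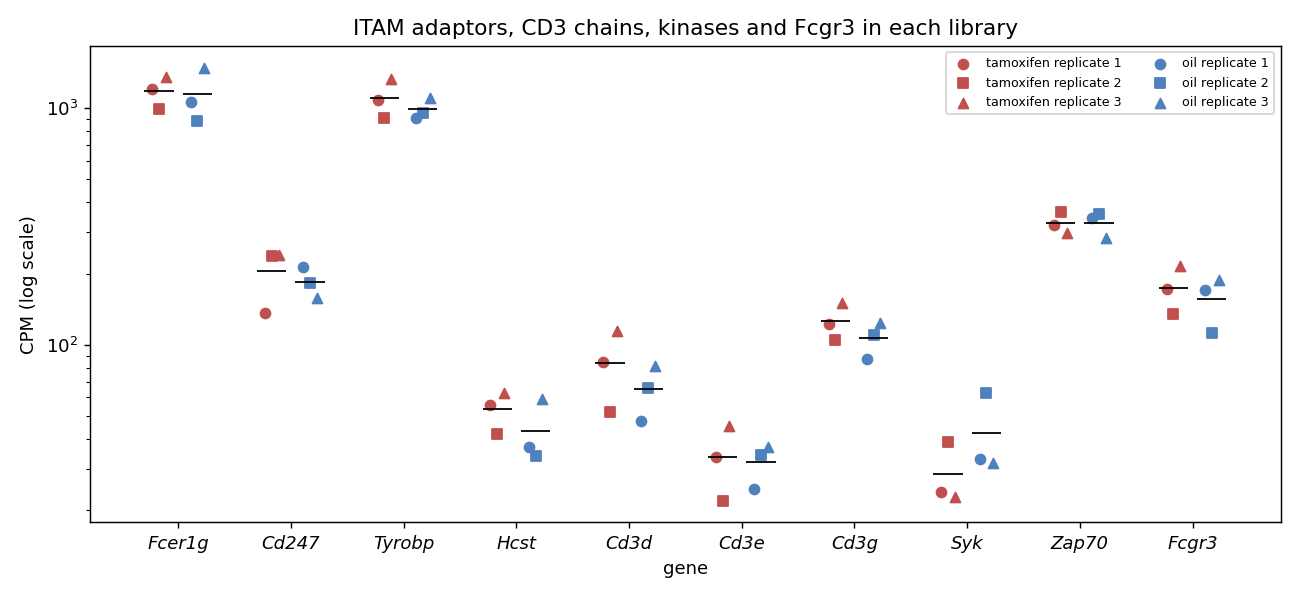
CPM on a log axis for the 10 genes, tamoxifen libraries in red and oil libraries in blue, with a symbol for each replicate and a line at each group mean. The groups overlap for every gene, Tyrobp and Fcer1g lie at 887 to 1485 CPM and Syk lies at 22.9 to 62.6 CPM.

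Zap70 transcripts outnumbered Syk transcripts per length in every library. The FPKM ratio of Zap70 to Syk was 43.7, 30.4 and 42.3 in tamoxifen, against 34.0, 18.6 and 29.1 in oil, means of 38.8 ± 7.26 and 27.3 ± 7.90 (SD, n = 3 each). The groups overlapped, since oil replicate 1 lay above tamoxifen replicate 2 (log2 difference 0.54; exact permutation test, two-sided, p = 0.2). Without oil replicate 2 the log2 difference was 0.28. With the length of the principal transcripts the ratios were 28.5 ± 5.33 in tamoxifen and 20.0 ± 5.79 in oil.

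The ratio of Fcer1g to Cd247, whose products both pair with NKp46, was 45.5, 21.5 and 29.3 in tamoxifen, against 25.7, 24.98 and 48.4 in oil by FPKM. The groups overlapped (log2 difference -0.04; exact permutation test, two-sided, p = 0.9). With principal transcript lengths the means were 15.1 ± 5.76 in tamoxifen and 15.5 ± 6.26 in oil. The ratio of Hcst to Tyrobp, the NKG2D adaptors, was 0.0661, 0.0600 and 0.0606 in tamoxifen, against 0.0527, 0.0458 and 0.0697 in oil (log2 difference 0.17; exact permutation test, two-sided, p = 0.5). Adjusted by the Benjamini-Hochberg method over these 4 exact permutation tests, the CD3 sum included, the p-values were 0.667 to 0.9.

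**Figure D2:**
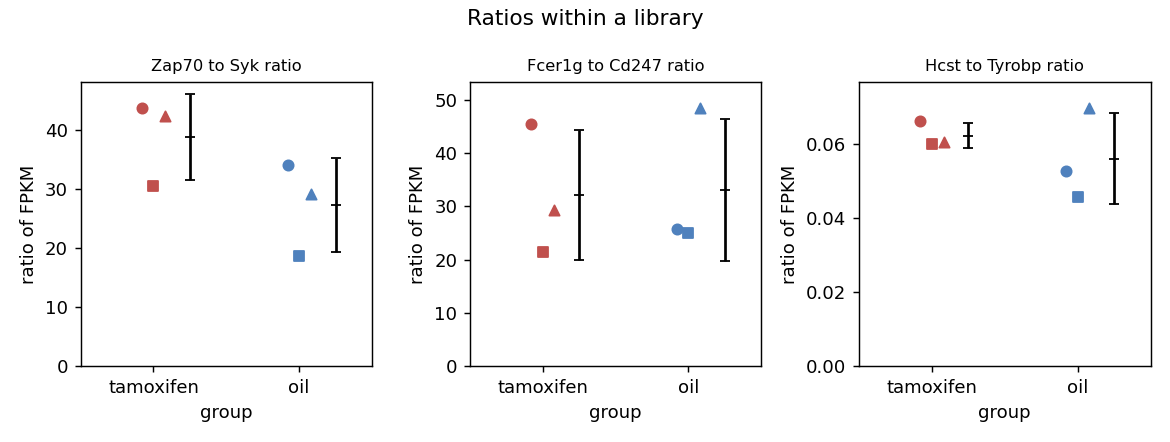
Ratios of FPKM within each library for Zap70 to Syk, Fcer1g to Cd247 and Hcst to Tyrobp, tamoxifen left of oil, with the mean and SD of each group beside the points. The Zap70 to Syk ratio averages 38.8 in tamoxifen and 27.3 in oil, with overlapping libraries.

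Fcgr3 (ENSMUSG00000059498; chromosome 1, 171051174 to 171064935, minus strand) encodes the low-affinity IgG receptor CD16, which mouse cells hold at the surface together with FcRγ. It had 173, 135 and 216 CPM in tamoxifen, against 170.3, 112 and 188 CPM in oil. In both groups replicate 2 was the lowest library and replicate 3 the highest. The log2 fold change was 0.15 (SE 0.24), with a fold change interval of 0.775 to 1.597. Of the windows of 50 bases in its principal transcript, 12.8% also occur in transcripts of other genes, most often the inhibitory receptor gene Fcgr2b, which was at 12.4 to 14.5 CPM in tamoxifen and 7.76 to 17.5 CPM in oil; how shared reads were counted was not stated in these sources. Fcgr3, Fcer1g, Tyrobp and Syk are also genes of myeloid cells, and 10 of 12 macrophage and Kupffer cell markers in the table summed to 34.4 to 38.3 CPM in tamoxifen and 30.1 to 35.6 CPM in oil. Most of that was Cd68, at a mean of 24.5 CPM, while Clec4f and Vsig4, which define Kupffer cells, did not exceed 1.65 and 0.331 CPM in tamoxifen or 4.03 and 1.24 CPM in oil. Csf1r, the receptor gene for macrophage colony-stimulating factor, was at 2.10 to 4.25 CPM in tamoxifen and 4.96 to 9.86 CPM in oil. Its groups did not overlap, as for 4.35% of all tested genes in that direction. C1qa, also of this list, separated the other way at 0.762 to 1.11 CPM in tamoxifen and 0 to 0.620 CPM in oil. It was too low to be tested.

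None of the 10 genes passed the test between tamoxifen and oil. With edgeR's quasi-likelihood test, adjusted by Benjamini-Hochberg over 10811 genes, 0 of 10 passed (adjusted p = 0.999 for each), and 1 gene of the whole table passed, Serpine2, which is 0.00925% of the genes tested. Unadjusted p from that test was 0.118 for Syk and up to 0.977 for Zap70, so 0 of 10 were below 0.05, against 3.52% of all tested genes. DESeq2 and limma on FPKM also called 0 of the 10. In 0 of 10 genes did the groups separate, against 8.87% of all tested genes. With only 10 genes, the 0 below 0.05 and the 0 that separated cannot be told apart from these shares. The authors' deposited table gave p-values of 0.104 for Syk to 0.936 for Zap70 and a q-value of 1 for each of the 10. The estimates were positive for 8 genes and negative for Syk and Zap70, but those of Fcer1g and Cd3e turned negative with offsets for gene length (-0.0093 and -0.018). Their median log2 fold change was 0.15, beside -0.0038 over all tested genes. The intervals leave room for differences: the widest bounds were 0.405-fold for Syk and 2.03-fold for Cd3d.

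**Figure D3:**
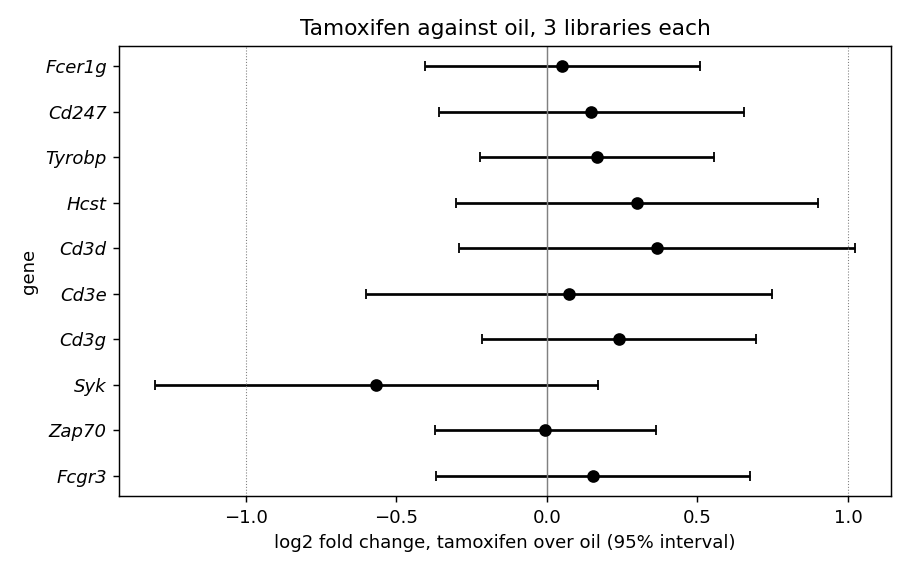
Log2 fold change of each gene, tamoxifen over oil, with its 95% interval from edgeR's quasi-likelihood fit; dotted lines mark 2-fold. Every interval includes 0; that of Syk runs from -1.30 to 0.17 and that of Cd3d from -0.29 to 1.02.

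Much of the variation of the 10 genes lay between libraries of the same group, and genes with short and long implied lengths differed in it. The 6 genes with implied lengths under 2000 bases were Tyrobp, Hcst, Fcer1g and the CD3 chains. Among the tamoxifen libraries, all 6 were lowest in tamoxifen replicate 2 and highest in tamoxifen replicate 3. Among the oil libraries, all 6 were highest in oil replicate 3. The share of all tested genes with this order was not counted, so it cannot be called particular to these genes. Of the 4 longer genes, Cd247, Syk and Zap70 were lowest in oil replicate 3 among the oil libraries and Fcgr3 was not. By principal transcript, Cd247 (1632 bases) and Fcgr3 (1347 bases) are also under 2000 bases. Fcgr3 had the pattern of the 6 short genes in both groups. Cd247 did not, as it was lowest in tamoxifen replicate 1 and oil replicate 3 within the groups. The all-gene length slope was positive in tamoxifen replicate 2, and the lowest of the 6 in oil replicate 3. It was highest in oil replicate 2 (0.11), where Hcst and Fcer1g were lowest among the oil libraries. Tyrobp and the CD3 chains were lowest in oil replicate 1 (0.04). Tamoxifen replicates 1 and 3 each had a slope of -0.06, and all 6 short genes were higher in replicate 3. The part of gene length in this variation was not tested. Each library's length trend was then subtracted, an alternative added after the data were seen. The within-group SD of log2 CPM was smaller for 9 of the 10 genes, and the share of all tested genes was not counted. The trend was fitted to these same 6 libraries, so a smaller SD is partly built in. The exception was Fcgr3, at 0.40 after and 0.37 before. The median SD of the 10 was 0.26 after and 0.36 before, and over all tested genes 0.33 after and 0.35 before. Hcst had the largest such difference, with an SD of 0.13 after and 0.37 before.

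**Figure D4:**
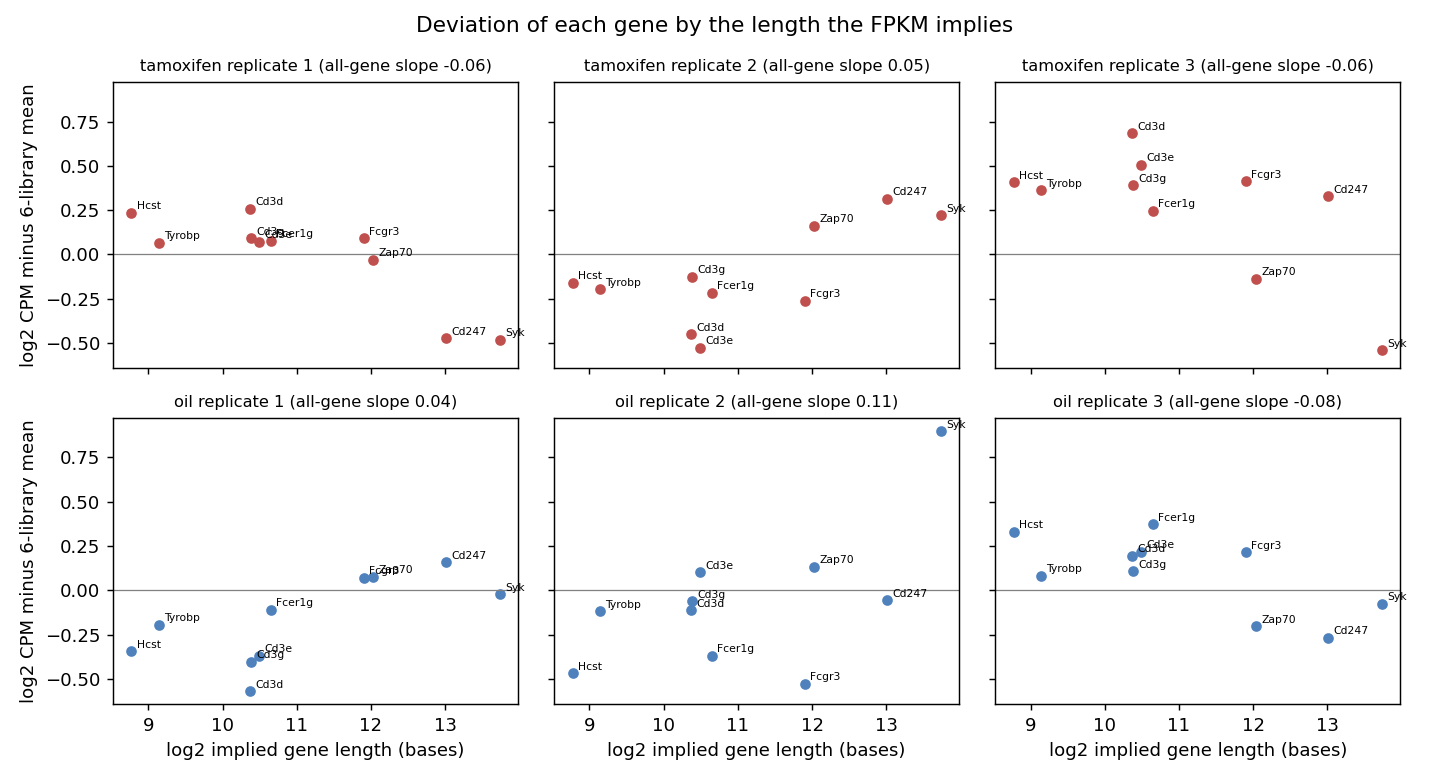
Deviation of each gene's log2 CPM from its mean over the 6 libraries, against the log2 of the gene length that the FPKM imply, with 1 panel per library and tamoxifen in the upper row. Hcst, Tyrobp and the CD3 chains lie above 0 in tamoxifen replicate 3 and oil replicate 3 and below 0 in tamoxifen replicate 2 and oil replicate 1, and Syk is at its highest in oil replicate 2.

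The tested genes whose profile over the 6 libraries came closest to that of Syk were Zfp292, Cep120 and Vezf1, with root mean square differences of 0.096, 0.10 and 0.12 between centred log2 CPM values. Zfp292 had 25.9, 39.8 and 20.95 CPM in tamoxifen, against 35.4, 57.7 and 32.6 CPM in oil. It was chosen for its likeness to Syk, so the shared high value in oil replicate 2 follows from the choice. The genes closest to Tyrobp were Htatip2, Mak16 and 1110004E09Rik, at 0.043, 0.048 and 0.049. Among the other genes described here, Cd3g was closest to Tyrobp (0.094, position 60 of all tested genes) and Syk farthest (0.63).

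Genes that act with these adaptors were likewise not called. Of 59 listed receptors, signalling genes and negative regulators, 54 were tested. In the same edgeR test over all genes 0 of the 54 passed, against 0.00925% of all tested genes. Unadjusted p was below 0.05 for 0 of the 54, against 3.52% of all tested genes. Of the 11 receptors that pair with the adaptors, 9 were tested, 5 with a higher and 4 with a lower estimate in tamoxifen, at a median log2 fold change of 0.02. Klrb1c, which encodes NK1.1, had 1009, 868 and 948 CPM in tamoxifen, against 726, 771 and 858 CPM in oil, so every tamoxifen library lay above every oil library, as for 4.52% of all tested genes (log2 fold change 0.26, SE 0.15). Klrk1, which encodes NKG2D, averaged 1045 ± 298 CPM in tamoxifen and 847 ± 59.7 CPM in oil (0.30, SE 0.20); the tamoxifen value of replicate 3 was 1386 CPM. Ncr1, named because its product pairs with both FcRγ and CD3ζ and not for its p-value, had a log2 fold change of 0.02 (SE 0.15).

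Of 32 downstream signalling genes, 29 were tested, 11 with a higher and 18 with a lower estimate (median log2 fold change -0.06). The smallest unadjusted p-values belonged to Nfatc1, a calcium-regulated transcription factor gene, at 215 ± 34.9 CPM in tamoxifen and 295 ± 96.7 CPM in oil (-0.45, SE 0.24), and to Ptprc, which encodes the phosphatase CD45 (-0.34, SE 0.24). Sos1, a Ras exchange factor gene named after its values were seen, was the 1 gene of this list whose tamoxifen libraries all lay below the oil libraries, at 4.96 ± 0.183 CPM in tamoxifen and 6.78 ± 1.117 CPM in oil, as for 4.35% of all tested genes. Lck, the Src-family kinase gene of T and NK cells, was the highest of this list at 436 FPKM in tamoxifen and 451 FPKM in oil, and was also named after its values were seen (-0.04, SE 0.14).

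The 16 negative regulators were all tested, 7 with a higher and 9 with a lower estimate (median log2 fold change -0.02). Ubash3a, a phosphatase-like suppressor of T cell receptor signalling that acts on ZAP-70 and Syk, had 44.3, 45.3 and 38.7 CPM in tamoxifen, against 36.1, 35.6 and 26.9 CPM in oil. Every tamoxifen library lay above every oil library, as for 4.52% of all tested genes and for 1 of the 16 in this list, and it did not pass the test (0.38, SE 0.23). Sla, which encodes a Src-like adaptor that limits receptor levels, averaged 203 ± 32.8 CPM in tamoxifen and 163 ± 32.9 CPM in oil (0.32, SE 0.20).

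**Figure D5:**
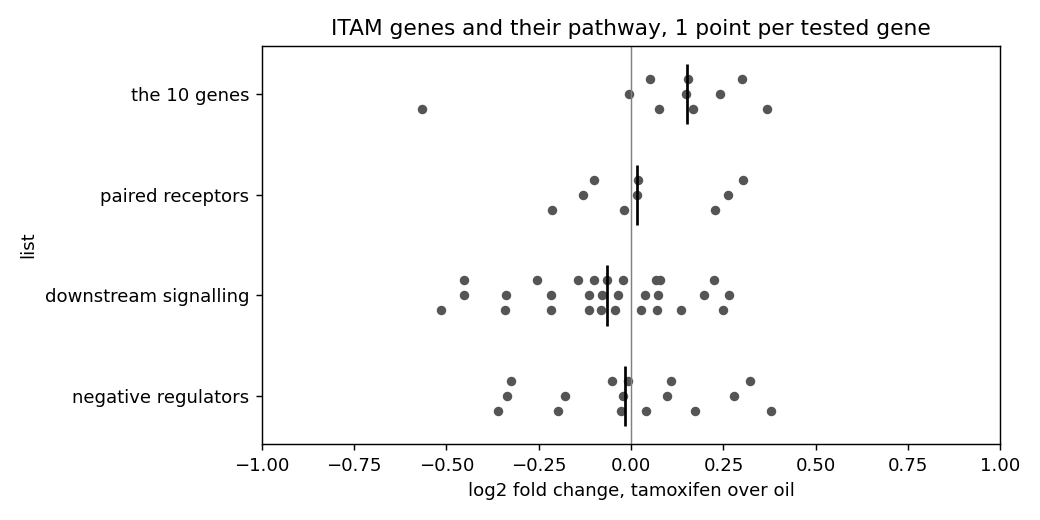
Log2 fold changes, tamoxifen over oil, for the 10 genes and for 3 lists of pathway genes, with 1 point per tested gene and a line at each median. The medians are 0.15, 0.02, -0.06 and -0.02 from top to bottom, and none of the genes passed the test.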

How the data were processed

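Gene expression was measured in 6 libraries made by SMARTer reverse transcription and PCR, per the labels' protocols, without molecular identifiers. The counts are therefore of reads and not of molecules, and the intervals rest on the spread between libraries. The authors deposited 1 table of whole-number counts and FPKM values per gene and library, and, per the file headers, the p-value and q-value of their own comparison for each gene. HISAT2, StringTie and mm10 are named in the submitters' processing notes; counter, annotation and strand setting were not stated in these sources. Replicates are numbered as in the sample titles: replicates 1, 2 and 3 are the table's columns numbered 1, 3 and 4 in both groups, matched through the sample descriptions; number 2 does not occur among the columns used here.

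Counts were tested with edgeR 4.0.16 (R 4.3.3; TMM factors, default filter, group as the only term, quasi-likelihood test, Benjamini-Hochberg adjustment over 10811 genes, threshold 0.05); the fits were tested on simulated counts. CPM carry the TMM factors, and SEs come from the F statistic. Ratios and sums per library were compared between groups by exact permutation (scipy 1.17.1). The gene length behind the FPKM was recovered from counts and FPKM. GENCODE M21 gave transcripts and motifs; 6 of the 10 genes have identical coordinates there. Alternatives were RLE factors, DESeq2 1.42.0, 2 other filters, the replicate number as a block, limma 3.58.1 on FPKM, offsets for gene length and leaving out each library. The members and lists were chosen with earlier results of these data known. Named pathway genes were the 2 with the smallest unadjusted p in each list unless stated otherwise. The genes most like a member were the 3 nearest for the member with the largest SD over libraries and for the one with the highest FPKM.
Levels of the cell type markers not described in the report were as follows. The 13 ILC1 and NK markers summed to 18532 to 24247 CPM in tamoxifen and 19210.0 to 26675 CPM in oil. B cell markers (3 of 8 in the table, mostly Ighm) summed to 366 to 400 and 399 to 485 CPM. Of these, Cd79b, an ITAM chain of the B cell receptor, was at 5.91 to 12.8 and 6.94 to 15.1 CPM. Ighm had groups that did not overlap, at 360 to 387 CPM in tamoxifen and 390 to 470 CPM in oil. That held in this direction for 4.35% of all tested genes. Dendritic cell and class II genes (6 of 8) summed to 15.0 to 19.0 and 10.8 to 20.2 CPM. Of these, Xcr1 was lower in tamoxifen without overlap, at 0 to 1.98 against 3.29 to 6.67 CPM in oil. H2-Aa, too low to be tested, was higher without overlap, at 1.66 to 1.82 against 0 to 0.184 CPM in oil. Neither Ighm nor Xcr1 passed the edgeR test. Neutrophil (1 of 6), mast cell and basophil (2 of 5) and hepatocyte markers (3 of 5) did not exceed a sum of 6.10 CPM in any library. Among them Mcpt8, too low to be tested, was at 0 CPM in tamoxifen and 0.913 to 1.71 CPM in oil.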

Additional observations from a re-analysis of the deposited data

How the results depend on the processing

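None of the 10 genes and none of the 54 pathway genes tested passed under any of the 15 alternative fits. The count over all genes was 1 in the main fit, 18 with DESeq2, 6 with no filter on low counts, 0 in each of the 3 limma fits on log2 FPKM (pseudocounts of 1 and 0.1, and of 1 with every gene), and 0 to 6 over the fits that left out 1 library (6, 1 and 0 without tamoxifen replicates 1, 2 and 3, and 2, 3 and 4 without oil replicates 1, 2 and 3). The log2 fold change ran over those 6 fits from -0.10 to 0.28 for Fcer1g, -0.20 to 0.31 for Cd3e, -0.11 to 0.061 for Zap70, -0.038 to 0.31 for Fcgr3 and -0.86 to -0.17 for Syk, and with offsets for gene length it was -0.0093 for Fcer1g and -0.018 for Cd3e; the cause of these sign changes was not tested. Cd247, Tyrobp, Hcst, Cd3d, Cd3g and Syk kept their direction in all 15 alternatives, but leaving out 1 library moved their estimates by more than 1.5 times: they ran from 0.020 to 0.36 for Cd247, 0.014 to 0.29 for Tyrobp (0.061 with length offsets), 0.15 to 0.58 for Hcst, 0.077 to 0.62 for Cd3d and 0.093 to 0.36 for Cd3g. The lowest values of these 5 genes were those without tamoxifen replicate 3, except for Hcst, whose lowest was without oil replicate 2. Without 1 library the log2 difference of the Fcer1g to Cd247 ratio ran from -0.33 to 0.27, of Zap70 to Syk from 0.28 to 0.72 and of Hcst to Tyrobp from 0.04 to 0.34, and that of the CD3 sum from 6.31 to 72.0 CPM. Deviations from the group means correlated at -0.07, 0.27 and 0.16 between libraries with the numbers 1, 2 and 3. Tamoxifen replicates 2 and 3 correlated best with the oil library of their own number. These correlations cannot decide whether the replicate numbers pair the libraries. With the replicate number as a block 0 genes passed, and the paired log2 difference of the Zap70 to Syk ratio, 0.54, had an exact sign-flip permutation p of 0.25, the smallest that 3 pairs allow; tamoxifen replicate 1 did not correlate best with its own number. The lowest depth among the 10 genes was that of Syk, at 120 counts in a library.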
